A study of Mus musculus with 18 samples.

Results

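Genomic imprinting silences 1 parental copy of a gene, so that a paternally expressed gene is read from the copy inherited through sperm. The memory of parental origin is DNA methylation, which is set in the germ line and copied at each cell division by Dnmt1, whereas the de novo enzymes Dnmt3a and Dnmt3b methylate DNA that carries none. Plagl1, Nnat, Impact and Peg13 have a control region that is methylated in the egg, on the copy that is then silent. The germ line mark of Zdbf2, at a distal start within Gpr1, is also maternal, but the expressed paternal copy later gains methylation upstream of the proximal start. Rasgrf1 differs in that its germ line mark lies on the paternal copy, the one that is expressed.

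These 6 paternally expressed genes, which lie apart from the large imprinted clusters, were taken by symbol from the 31053 mouse genes counted in each library. Counts were found for 5 of the 6, and Peg13, a transcript within an intron of Trappc9, was not analysed here. Single-cell transcriptomes came from 18 libraries of whole mouse embryos at E8.5, when the first organs form, on the 129S4/SvJae background. There were 7 wildtype (WT), 3 Dnmt1 null (Dnmt1 KO), 4 Dnmt3a null (Dnmt3a KO) and 4 Dnmt3b null (Dnmt3b KO) libraries, with no other allele or treatment given. By the labels each was made from 1 embryo of a mating of heterozygous parents, and litters were not given in the sources used here. After filters on cell quality, 109962 cells remained, and their unique molecular identifiers (UMIs) were summed per embryo, from 36516346 to 234638944 UMIs per library. Levels are given in CPM, the UMIs of a gene per 1000000 mouse UMIs of the embryo or cell class, and are compared only within a gene.

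Several libraries need care. Dnmt3b KO 1 and 2 shared 12249 cell barcodes, 86.5% and 79.3% of their totals, and of the 7853 kept in both 95.8% fell in the same cell class. Whether they come from 1 embryo or 2 cannot be told from the labels, and they were averaged into 1 replicate, which left 3 for the group. Dnmt1 transcript was at 83.3 to 116 CPM in WT and 14.9 to 15.7 CPM in Dnmt1 KO, and Dnmt3a transcript at 23.1 to 34.97 CPM in WT and 7.35 to 11.7 CPM in Dnmt3a KO. Dnmt3b transcript was at 62.3 ± 17.8 CPM (SD, n = 7) in WT and 63.1 ± 5.56 CPM (n = 3) in Dnmt3b KO, so these counts do not check the Dnmt3b KO labels. Of the libraries labelled Dnmt3b KO, replicates 11 and 12 held only 15.1 and 7.55 CPM of Dnmt3a, against 32.0 CPM for the averaged pair. By Y-linked counts all Dnmt1 KO and Dnmt3a KO embryos and 3 of 4 Dnmt3b KO libraries were male, and 6 of 7 WT embryos were female.

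The genes sit in different surroundings, given here in mm10 from the GENCODE annotation. Zdbf2 (ENSMUSG00000027520), which encodes a zinc finger protein, lies at chr1:63273265-63314576 on the plus strand. RefSeq gives it a second, distal start at 63200358, inside an intron of Gpr1 on the opposite strand and over an exon of the non-coding transcript Platr12, which was not analysed here. The long transcript from the distal start shares the 3′ end of the gene, so 3′ counts cannot separate the products of both starts. Nnat (ENSMUSG00000067786) encodes neuronatin, a small membrane proteolipid, and lies at chr2:157560078-157562522 on the plus strand within Blcap, which is on the minus strand. Plagl1 (ENSMUSG00000019817), a zinc finger transcription factor, lies at chr10:13060504-13131694. Rasgrf1 (ENSMUSG00000032356), an exchange factor for Ras, lies at chr9:89909908-90026977, and both are on the plus strand.

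Sequence around 4 starts is shown because imprinted starts are regulated by methylation of CpG sites, which are in capitals. Each runs 5′ to 3′ from 250 bases before to 50 bases after a RefSeq start (GRCm38.p6), and the Zdbf2 pair allows the distal and the proximal start to be compared.
Zdbf2 distal start, chr1:63200108-63200407, plus strand: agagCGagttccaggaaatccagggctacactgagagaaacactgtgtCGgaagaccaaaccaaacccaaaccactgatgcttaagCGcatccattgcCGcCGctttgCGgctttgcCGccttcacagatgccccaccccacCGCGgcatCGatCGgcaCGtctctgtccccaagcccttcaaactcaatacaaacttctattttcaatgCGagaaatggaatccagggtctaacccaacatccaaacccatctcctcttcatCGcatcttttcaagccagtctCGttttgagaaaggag
Zdbf2 proximal start, chr1:63273019-63273318, plus strand: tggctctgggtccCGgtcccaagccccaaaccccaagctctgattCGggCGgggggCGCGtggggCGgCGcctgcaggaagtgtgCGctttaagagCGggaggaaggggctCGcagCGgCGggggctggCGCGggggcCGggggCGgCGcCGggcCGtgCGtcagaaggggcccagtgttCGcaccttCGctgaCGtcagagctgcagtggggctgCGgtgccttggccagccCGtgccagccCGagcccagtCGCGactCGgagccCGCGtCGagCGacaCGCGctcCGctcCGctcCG
Nnat start, chr2:157559828-157560127, plus strand: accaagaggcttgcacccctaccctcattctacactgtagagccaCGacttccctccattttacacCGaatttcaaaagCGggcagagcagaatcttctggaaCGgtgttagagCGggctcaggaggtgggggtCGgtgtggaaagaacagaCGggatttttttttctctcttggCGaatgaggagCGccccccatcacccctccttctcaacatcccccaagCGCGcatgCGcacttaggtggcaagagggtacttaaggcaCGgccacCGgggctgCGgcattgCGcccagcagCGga
Plagl1 start inside the gene, chr10:13090582-13090881, plus strand: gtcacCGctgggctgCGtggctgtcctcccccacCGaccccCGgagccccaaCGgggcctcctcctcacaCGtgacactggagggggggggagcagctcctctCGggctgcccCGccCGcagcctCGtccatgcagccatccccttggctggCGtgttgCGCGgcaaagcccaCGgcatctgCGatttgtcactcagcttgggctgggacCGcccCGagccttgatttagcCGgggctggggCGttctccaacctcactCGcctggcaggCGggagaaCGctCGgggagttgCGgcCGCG
The distal Zdbf2 window held 15 CpG sites and the proximal window 38. The Nnat window held 17, and the Plagl1 window and that of Rasgrf1 each held 26. The median of 32851 promoters of the same length was 7, and 4.95% of them held as many as the proximal Zdbf2 window. The letters TGCCGC, the core that the imprint-protecting factor ZFP57 binds when methylated, were searched on both strands. They occurred 2 times on the forward and 1 time on the reverse strand of the distal Zdbf2 window, 1 time on the reverse strand of the Nnat and of the Plagl1 window, and not in the proximal Zdbf2 or the Rasgrf1 window. Of all promoters of this length, 11.6% held them.

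In WT embryos the genes were seen in different cell classes. Classes were rebuilt by clustering and named from marker genes, and 18 of them had at least 25 cells in 3 or more WT embryos. Extraembryonic is written ExE and neuromesodermal progenitor NMP. Plagl1 was highest in ExE mesoderm (119 ± 41.6 CPM, SD, n = 7), endothelium (68.3 ± 22.0) and cardiomyocytes (63.8 ± 15.99), and lowest in neural crest (0.815 ± 0.563) and erythroid cells (0.387 ± 0.389). Zdbf2 was highest in ExE mesoderm (79.0 ± 8.71 CPM), hindbrain and spinal cord (76.0 ± 16.2) and NMPs (66.9 ± 8.13). It was lowest in erythroid cells (2.74 ± 1.47 CPM) and in ExE endoderm (2.13 ± 1.13), the absorptive layer of the yolk sac. Nnat led in pharyngeal mesoderm (636 ± 194 CPM), ExE mesoderm (552 ± 127) and somitic mesoderm (299 ± 48.1), and was lowest in erythroid cells (4.22 ± 2.28).

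Impact (ENSMUSG00000024423), a regulator of translational control through GCN2, lies on chromosome 18 from 12955852 to 12992950 on the plus strand. Its highest class was ExE endoderm (76.4 ± 8.90 CPM, SD, n = 7), followed by ExE mesoderm (71.5 ± 5.06) and allantois (65.6 ± 13.2, n = 6), and its lowest was erythroid cells (16.4 ± 3.74, n = 7). Rasgrf1 was near the detection limit, with 7 to 43 UMIs in a whole library. Its highest class was surface ectoderm, the future epidermis, at 1.35 ± 0.582 CPM, and no WT embryo had a UMI of it in ExE mesoderm, erythroid, notochord, immune or neural crest cells. Most neighbours in these orders overlapped. Of 17 pairs of adjacent classes, the embryos of both classes overlapped in 17 for Impact and Rasgrf1, 16 for Plagl1 and 15 for Zdbf2 and Nnat. The exceptions were NMPs against hindbrain and spinal cord for Plagl1, ExE against somitic mesoderm and endothelium against immune cells for Nnat, and gut against immune and immune against erythroid cells for Zdbf2.

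**Figure D1:**
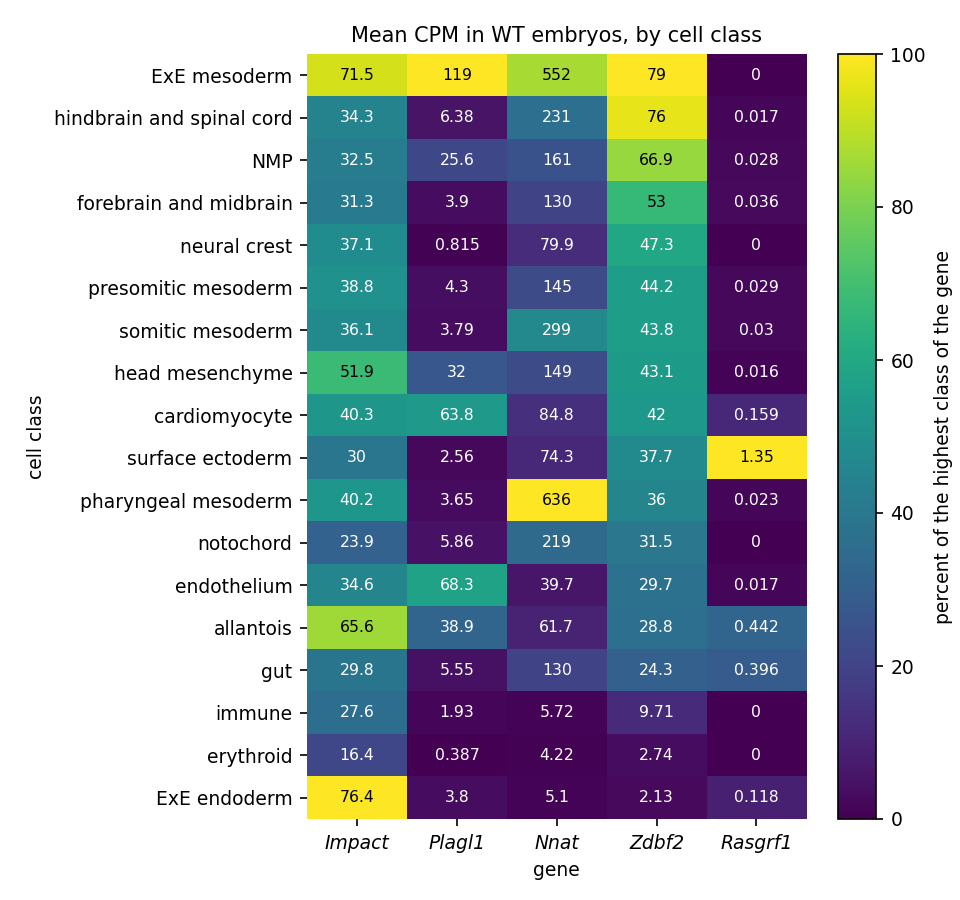
Mean level of each gene in WT embryos by cell class, in CPM, with the colour giving the level relative to the highest class of the same gene. Plagl1 and Zdbf2 peak in ExE mesoderm, Nnat in pharyngeal mesoderm, Impact in ExE endoderm and Rasgrf1 in surface ectoderm.

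The genes whose WT pattern was most like that of each member were found with Pearson's r of the mean log2(CPM + 1) over the 18 classes, a description over classes that come from the same libraries. For Zdbf2 these were Myo5a (r 0.973), Fndc3c1 (0.960) and Mpdz (0.950). Nnat was most like Fxyd6 (r 0.949), Fzd2 (0.946) and Efcab11 (0.9401), and Plagl1 most like Actg2 (r 0.882), Msrb3 (0.882) and Ykt6 (0.877). For Impact the closest were Rassf8 (r 0.887), Hps5 (0.873) and Actr1b (0.873). Rasgrf1 was most like the surface ectoderm regulators Dlx3 (r 0.912) and Trp63 (0.88) and the gene Upk1a (0.889). Trp63 is among the markers that named surface ectoderm, so its high level there follows in part from the naming. The Rasgrf1 pattern rests on only 7 to 43 UMIs in a whole library.

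The first comparison asks how the members changed where the maintenance enzyme was lost. Over the whole embryo Impact rose in Dnmt1 KO and Zdbf2 fell, and Plagl1, Nnat and Rasgrf1 did not pass the test. Calls needed both a Benjamini-Hochberg adjusted p below 0.01 over 18658 genes, from the quasi-likelihood test of edgeR, and a change of 1 or more on the log2 scale. By this rule 2 of 5 members were called in Dnmt1 KO, where 14.3% of all genes were called. A whole-embryo sum changes with the number of cells of a class and with the RNA per cell, and these cannot be told apart in it.

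Impact stood at 37.9, 37.7, 49.7, 47.6, 42.5, 41.5 and 42.5 CPM in WT 1 to 7 and at 123, 94.1 and 95.6 CPM in Dnmt1 KO 1 to 3. Every mutant was above every WT embryo, and the edgeR estimate was 2.56-fold (log2 fold change 1.35, SE 0.09, adjusted p 6.43e-09). Zdbf2 stood at 23.1, 30.4, 38.2, 47.8, 42.1, 33.2 and 35.8 CPM in the same WT embryos and at 8.46, 4.96 and 9.50 CPM in the mutants. Every mutant was below every WT embryo, at 0.225 times the WT level (log2 fold change -2.15, SE 0.48, adjusted p 0.00222 in edgeR). Without Dnmt1 KO 1 or Dnmt1 KO 2 the call of Zdbf2 was lost, with an edgeR adjusted p of 0.012 at a log2 fold change of -2.20 and of 0.02 at -1.93. With only WT and Dnmt1 KO in the edgeR fit its log2 fold change was -2.17 with an SE of 0.21 (adjusted p 1.26e-05), and without the library labelled Dnmt3b KO 12 the adjusted p was 5.49e-06. All 3 mutants were male and 6 of 7 WT embryos female, so sex and genotype are largely confounded. In an edgeR fit with a Y-linked covariate, which rests on few embryos, Zdbf2 was at -3.47 (adjusted p 0.00179) and Impact at 1.37 (adjusted p 3.6e-06). Sex varied within a group only through WT 2, a male with 30.4 CPM of Zdbf2, and Dnmt3b KO 12, a female with 2.42 CPM. The covariate is set by these libraries, so its values are not taken as effects freed of sex.

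The other members overlapped between the groups. Plagl1 was at 11.1 to 23.9 CPM, with a median of 16.7, in WT and at 29.2, 14.5 and 21.5 CPM in Dnmt1 KO (log2 fold change 0.38, SE 0.22, adjusted p 0.192). Nnat was at 108 to 161 CPM, with a median of 128, in WT and at 136, 64.6 and 160.0 CPM in Dnmt1 KO (-0.07, SE 0.20, adjusted p 0.812). Dnmt1 KO 2 had less Nnat than any WT embryo, while the other mutants lay within the WT range. That library also stood apart in its make-up, with 31.0% of its cells in ExE ectoderm against 5.601% and 4.43% in the other mutants, and this class held 4.04 CPM of Nnat there. The part of this class in the Nnat level of the library was not tested. Rasgrf1 was at 0.0754 to 0.247 CPM in WT and at 0.163, 0.159 and 0.213 CPM in Dnmt1 KO (0.40, SE 0.38, adjusted p 0.424). Of all genes, 27.3% had Dnmt1 KO and WT embryos that did not overlap, as did 2 of 5 members.

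**Figure D2:**
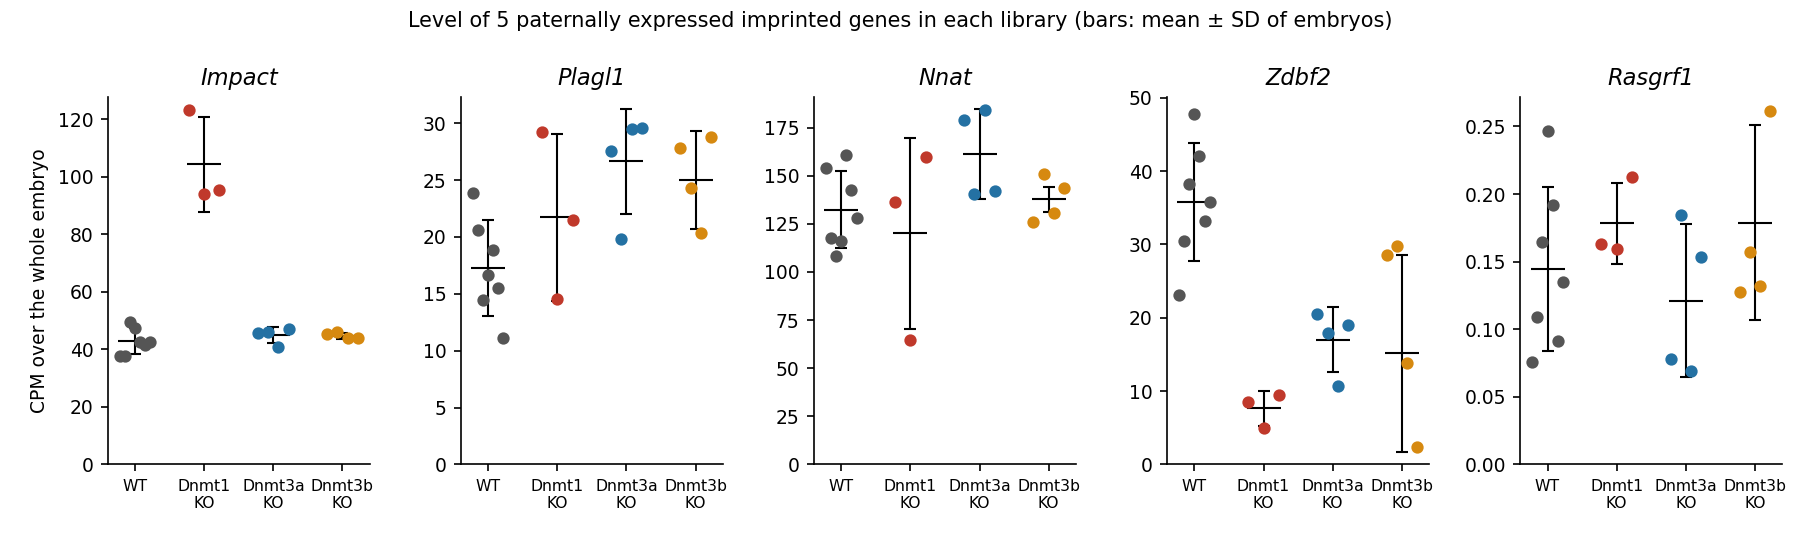
Level of each gene over the whole embryo, in CPM, with 1 point per library and the mean ± SD of each group (n = 7, 3, 4 and 3 embryos, as Dnmt3b KO 1 and 2 count as 1). Impact separates Dnmt1 KO from the other groups, and Zdbf2 is below WT in Dnmt1 KO and Dnmt3a KO and spread from 2.42 to 29.8 CPM in Dnmt3b KO.

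The make-up of Dnmt1 KO embryos differed from WT. ExE mesoderm, the class with most Zdbf2 and Plagl1 in WT, made up 7.76% to 18.1% of kept cells in Dnmt1 KO and 2.18% to 5.15% in WT. Hindbrain and spinal cord, also high for Zdbf2, made up 0% to 0.196% in Dnmt1 KO and 6.47% to 13.8% in WT. ExE ectoderm, a source of the placenta, made up 4.43% to 31.0% in Dnmt1 KO and 0% to 1.74% in WT, and epiblast 9.20% to 16.8% and 0% to 0.266%. In ExE ectoderm of the mutants Zdbf2 stood at 7.44, 2.76 and 4.46 CPM, Nnat at 3.72, 4.04 and 7.93 CPM and Impact at 25.5, 24.8 and 26.1 CPM. Too few WT embryos had this class for a comparison within it, and each of these levels is below the whole-embryo level of the same gene and library. Cells of unnamed clusters, which enter no class, made up 3.93% to 34.4% in Dnmt1 KO, the highest in Dnmt1 KO 3, and 12.3% to 20.8% in WT. The members were therefore compared within the 6 classes that had at least 25 cells in 3 or more embryos of both groups. Some of these classes were filled by different clusters. In ExE mesoderm 96.4% of Dnmt1 KO reference cells lay in cluster 23 (led by Tdo2 and Stard8) against 2.99% in WT, which was mostly in clusters 27 and 32. In head mesenchyme all Dnmt1 KO reference cells lay in cluster 26 (led by Mesp1), and 99.1% of WT cells in cluster 6 (led by Lefty2). Mesp1 is known from nascent mesoderm, where the study also reports Lefty2, and neither gene is among the head mesenchyme markers used. The name head mesenchyme is therefore in doubt for the cells of both groups, and what is given for this class compares clusters 26 and 6. In ExE endoderm 73.8% of Dnmt1 KO cells lay in cluster 11 (led by Pkd1l2) and 54.7% of WT cells in cluster 1 (led by Apob). In gut (mostly cluster 3), endothelium (clusters 14 and 16) and immune cells (cluster 34) the same clusters held most cells of both groups.

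Within classes Impact moved in 1 direction. Every mutant was above every WT embryo in 6 of 6 classes, which held for 10.7% of all pairs of gene and class, and 5 were called, where 8.3% of all pairs of gene and class were called. In endothelium the mutants stood at 102, 109 and 120.5 CPM and the WT embryos between 23.95 and 43.6 CPM (log2 fold change 1.79, SE 0.14, adjusted p 1.75e-08). In ExE endoderm, its highest WT class, they stood at 166, 159.8 and 158 CPM against 62.0 to 89.1 CPM (1.09, SE 0.09, adjusted p 1.69e-07). These groups were far apart in both an embryonic and an extraembryonic class. In ExE endoderm, as in ExE mesoderm, mutant and WT cells lay mostly in different clusters, whose part in the difference was not tested. The log2 fold change was 1.95, SE 0.19, adjusted p 1.22e-05 in immune cells, 1.19, SE 0.08, adjusted p 1.22e-09 in ExE mesoderm and 1.12, SE 0.09, adjusted p 1.81e-08 in head mesenchyme, where the mutant cells are those of cluster 26. In gut it was 0.95, SE 0.10, adjusted p 1.33e-06, under the fold threshold. The size differed among classes (F test of class by genotype with embryo as a block in edgeR, adjusted p 1.66e-06), a test that 43.5% of all genes passed at 0.01.

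Zdbf2 was called lower in 3 of 6 classes, where 8.3% of all pairs of gene and class were called in Dnmt1 KO. These were gut, where the same cluster held most cells of both groups, and ExE mesoderm and head mesenchyme, where the mutant and WT cells lay mostly in different clusters. In ExE mesoderm the mutants stood at 11.9, 9.38 and 12.4 CPM and the WT embryos between 67.2 and 90.5 CPM (log2 fold change -2.70, SE 0.43, adjusted p 6.58e-05). In gut they stood at 3.36, 3.53 and 5.20 CPM against 18.5 to 31.8 CPM (-2.47, SE 0.65, adjusted p 0.00832), and in head mesenchyme at 14.2, 10.8 and 10.1 CPM against 32.6 to 59.1 CPM (-1.80, SE 0.46, adjusted p 0.00593). In endothelium the mutants stood at 13.2, 14.2 and 12.8 CPM against 17.8 to 38.4 CPM, and the test was not passed (-1.02, SE 0.41, adjusted p 0.0717). In immune cells and ExE endoderm, where WT levels were low, the log2 fold change was 0.07 (SE 0.42) and -0.21 (SE 0.51). The effect differed among classes (adjusted p 1.21e-11). Without any 1 of the 3 Dnmt1 KO embryos, or without WT 4, Zdbf2 was called in 1 class, and without the library labelled Dnmt3b KO 12 in 4.

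Plagl1 and Nnat did not move the same way in all classes. Plagl1 fell in endothelium, where the mutants stood at 23.8, 16.2 and 16.6 CPM and the WT embryos between 30.7 and 101 CPM (log2 fold change -1.71, SE 0.36, adjusted p 0.0013), a call that was lost without Dnmt1 KO 2. In the other 4 classes tested its log2 fold change lay between -0.48 and 0.37, with no call. Nnat rose in endothelium, at 87.1, 78.2 and 90.8 CPM against 28.7 to 53.9 CPM (1.23, SE 0.18, adjusted p 3.47e-05). It fell in gut, at 40.4, 66.4 and 64.0 CPM against 100.02 to 171 CPM (-1.08, SE 0.25, adjusted p 0.00338), a call that was lost without any 1 of the 3 Dnmt1 KO embryos, WT 1 or WT 2. In head mesenchyme Nnat stayed under the fold threshold (0.59, SE 0.16, adjusted p 0.00764). The effect differed among classes for Plagl1 (adjusted p 1.22e-05) and Nnat (1.53e-07).

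Rasgrf1 passed the filter on low counts in gut alone, and it did so through the mutants. The mutants had 6, 10 and 5 UMIs there in 30, 42 and 41 cells, or 2.88, 5.88 and 2.60 CPM. The WT embryos had 0 to 7 UMIs in 74 to 473 cells, or 0 to 0.693 CPM. Every mutant was above every WT embryo, which held for 10.7% of all pairs of gene and class. The gene was called higher (log2 fold change 3.24, SE 0.60, adjusted p 0.000447 in edgeR). As it entered the test only through the group where it was high, no conclusion is drawn from this call. The call was also lost without Dnmt1 KO 2, and counts this low fix the size poorly.

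**Figure D3:**
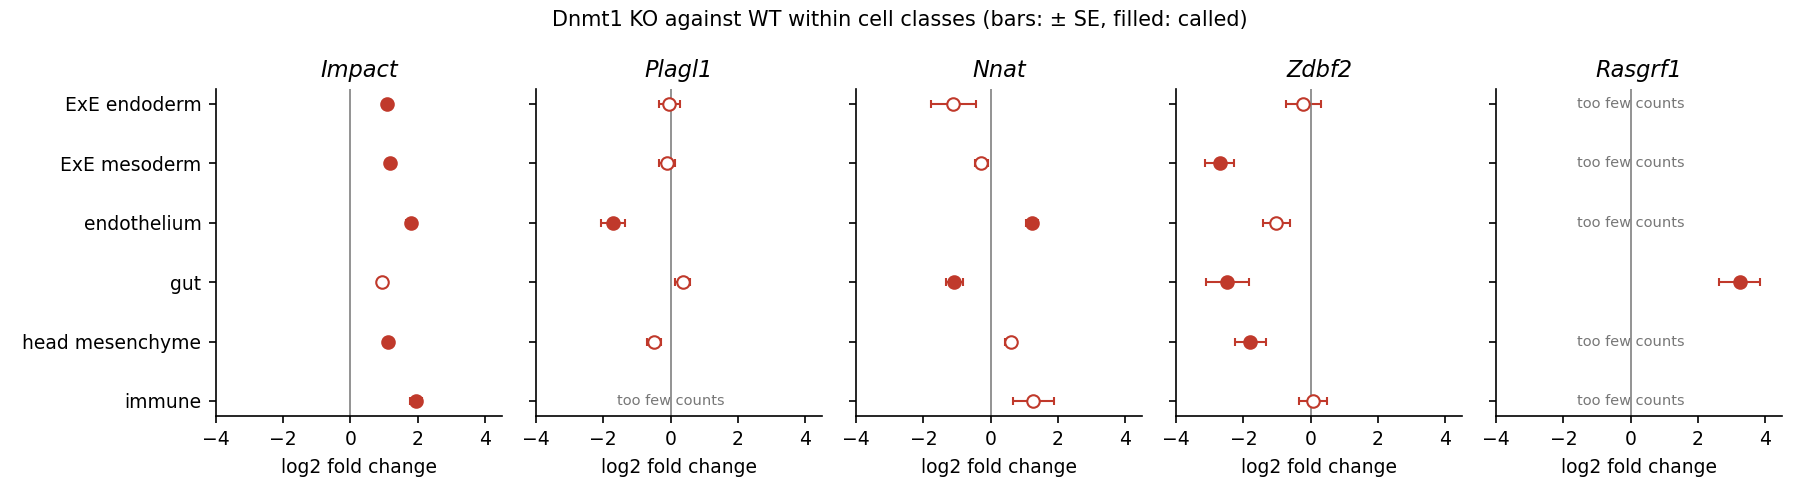
Log2 fold change of Dnmt1 KO against WT by cell class, with bars of ± SE and filled points for calls. Impact lies above 0 in all 6 classes (0.95 to 1.95), and Zdbf2 is lowest in ExE mesoderm (-2.70).

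A level per embryo was also computed in which each class kept its mean WT share, over 5 classes with log2(CPM + 1). These were ExE endoderm, ExE mesoderm, endothelium, gut and head mesenchyme. Hindbrain and spinal cord and other classes with too few mutant cells were left out. In ExE endoderm, ExE mesoderm and head mesenchyme mutant and WT cells lay mostly in different clusters, so the level does not hold the make-up within a class fixed. Impact was higher in Dnmt1 KO than in WT by 1.12 (p 0.00833, two-sided exact permutation test), the smallest p that its 120 splits can give. With Benjamini-Hochberg adjustment over the 15 such tests that were run, this p became 0.03125. For Zdbf2 the difference was -1.77, with the same p in the exact test. For Rasgrf1 it was 0.66, also with this p, but the value rests on the 5 to 10 UMIs of each mutant in gut, since its mean in each other class was at most 0.205 CPM. Plagl1 differed by -0.61 (p 0.05, exact permutation test), opposite in sign to its whole-embryo value. Nnat differed by -0.14 (p 0.417, exact permutation test).

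The second comparison asks about loss of either de novo enzyme, against the same WT embryos. No member was called over the whole embryo in Dnmt3a KO, where 0.225% of all genes were called, or in Dnmt3b KO, where 1.89% were called. In edgeR at an unadjusted p under 0.05, Plagl1 and Zdbf2 passed in each group, as did 9.64% of all genes for Dnmt3a KO and 18% for Dnmt3b KO, and DESeq2 called no member in either. Zdbf2 stood at 20.5, 17.9, 10.7 and 18.999 CPM in Dnmt3a KO 1, 2, 13 and 14. All were below the lowest WT embryo, WT 1, at 23.1 CPM (log2 fold change -1.08, SE 0.40, adjusted p 0.352). Of all genes, 2.23% had Dnmt3a KO and WT embryos that did not overlap, as did 1 of 5 members. With only WT and Dnmt3a KO in the edgeR fit, the log2 fold change was -1.08 with an SE of 0.18 and Zdbf2 was called (adjusted p 0.00905), and without the library labelled Dnmt3b KO 12 the SE was 0.21 and the adjusted p 0.0193. All 4 Dnmt3a KO embryos were male, so here too sex and genotype are largely confounded. With the Y-linked covariate in the edgeR fit, Zdbf2 was at -2.37 (SE 0.67, adjusted p 0.175). That covariate is set by WT 2 and the library labelled Dnmt3b KO 12, so this value is not taken as an effect freed of sex.

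In Dnmt3b KO the libraries differed from each other. Zdbf2 stood at 28.6, 29.8, 13.9 and 2.42 CPM in Dnmt3b KO 1, 2, 11 and 12. The first pair lay within the WT range, Dnmt3b KO 11 lay among the Dnmt3a KO embryos, and Dnmt3b KO 12 was below every Dnmt1 KO embryo. The log2 fold change of the group was -1.27, SE 0.46, adjusted p 0.149, and it was -0.36 (SE 0.34) without Dnmt3b KO 11 and 12 and -2.09 (SE 0.48, adjusted p 0.0158) without the averaged pair. With the covariate for Y-linked genes it was -2.43 (SE 0.66, adjusted p 0.039). Dnmt3b KO 12, the library lowest in Zdbf2, is also the only female of the group, and the covariate is set by it and by WT 2. Of all genes, 6.53% had Dnmt3b KO and WT embryos that did not overlap, and no member did.

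Outside Dnmt1 KO, the libraries low in Zdbf2 were also low in Dnmt3a transcript. The 4 Dnmt3a KO embryos and the libraries labelled as replicates 11 and 12 of Dnmt3b KO had 7.35 to 15.1 CPM of Dnmt3a and 2.42 to 20.5 CPM of Zdbf2. The WT embryos and the averaged Dnmt3b KO pair had 23.1 to 34.97 CPM of Dnmt3a and 23.1 to 47.8 CPM of Zdbf2. The Dnmt1 KO embryos were low in Zdbf2 with 26.6 to 38.1 CPM of Dnmt3a. The part of the Dnmt3a level in the Zdbf2 level of Dnmt3b KO 11 and 12 was not tested.

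**Figure D4:**
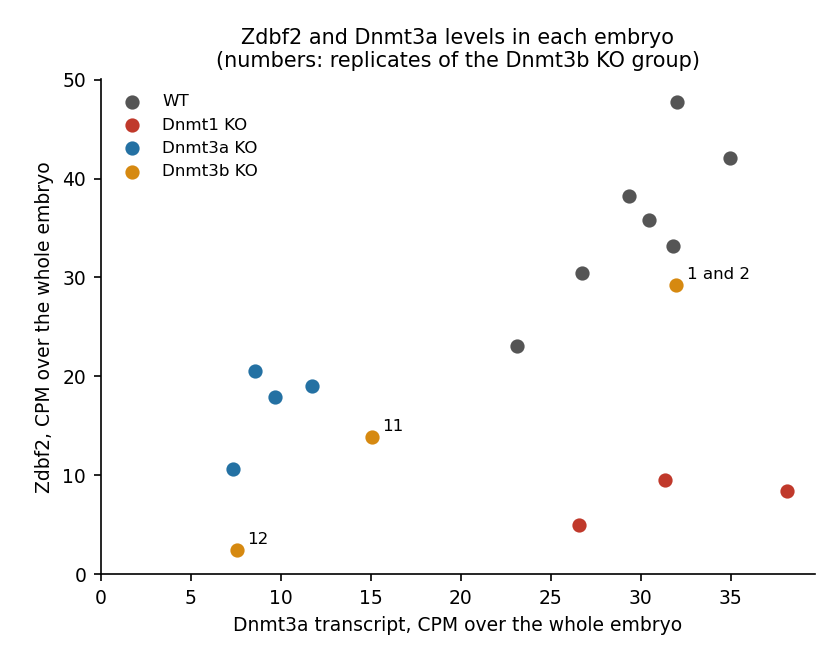
Zdbf2 against Dnmt3a transcript over the whole embryo, both in CPM, with 1 point per embryo coloured by group. Dnmt3b KO 11 had 15.1 CPM of Dnmt3a and 13.9 CPM of Zdbf2, Dnmt3b KO 12 had 7.55 and 2.42 CPM, and the Dnmt3a KO embryos had 7.35 to 11.7 and 10.7 to 20.5 CPM.

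Zdbf2 was followed through 18 classes, which come from the same embryos and are not replicates of each other. In Dnmt3a KO its log2 fold change was negative in 18 of 18 classes, with a median of -1.06, and in 11 of them every mutant was below every WT embryo, which held for 0.446% of all pairs of gene and class. None was called in edgeR, where 0.115% of all pairs of gene and class were called, and 15 had an unadjusted p under 0.05, as did 9.87% of all pairs. In cardiomyocytes the mutants stood at 15.7, 14.4, 7.08 and 16.9 CPM and the WT embryos between 34.1 and 61.4 CPM (log2 fold change -1.58, SE 0.40, adjusted p 0.187). In ExE mesoderm they stood at 42.1, 34.9, 24.9 and 45.4 CPM against 67.2 to 90.5 CPM (-1.14, SE 0.34, adjusted p 0.155). The groups did not overlap in either class, and Dnmt3a KO 13 was the lowest mutant in both. In forebrain and midbrain they stood at 40.6, 35.7, 17.2 and 31.7 CPM against 41.8 to 65.0 CPM (-0.76, SE 0.31, adjusted p 0.373). The effect differed among classes (adjusted p 0.000776, a test that 4.01% of all genes passed), from -1.69 in immune cells to -0.04 in ExE endoderm. Without the library labelled Dnmt3b KO 12, Zdbf2 was called lower in 6 of 18 classes, which were ExE mesoderm, allantois, cardiomyocytes, gut, head mesenchyme and surface ectoderm. The share of all pairs called in that fit is not given here.

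The mutants differed in degree. As a median over classes, Zdbf2 stood at 54.6%, 55.2%, 28.4% and 51.0% of the WT mean in Dnmt3a KO 1, 2, 13 and 14. It stood at 83.8% in the averaged Dnmt3b KO pair, 41.3% in Dnmt3b KO 11 and 4.39% in Dnmt3b KO 12. The latter is the only library processed with Cell Ranger 5.0.0 and the only female one among the mutants, and the part of either in its level was not tested. Dnmt3b KO 12 was below every WT embryo in 18 of 18 classes, Dnmt3b KO 11 in 17 and the averaged pair in 5. How often a single library lies below all WT embryos over all genes is not given here. How unusual these counts are therefore cannot be told. In NMPs Dnmt3b KO 12 had 2.42 CPM where the lowest WT embryo had 55.5, and in neural crest it had no UMI of Zdbf2 where WT embryos had 27.0 to 57.1 CPM. The log2 fold change of the Dnmt3b KO group was negative in 18 of 18 classes (median -1.21), and in 15 of 18 without Dnmt3b KO 11 and 12. None was called in edgeR, where 0.657% of all pairs of gene and class were called, and 16 had an unadjusted p under 0.05, as did 14.1% of all pairs. The effect was not shown to differ among classes (adjusted p 0.303, a test that 4.16% of all genes passed). With each class held at its WT share, over 15 classes, Zdbf2 differed by -0.97 in Dnmt3a KO (p 0.00303, adjusted p 0.03125, exact permutation test). This p is the smallest that 330 splits can give. In Dnmt3b KO Zdbf2 differed by -1.64 (p 0.0167, adjusted p 0.05, exact permutation test), and the level ranged from 2.36 to 29.4 CPM and overlapped that of WT (26.1 to 42.7 CPM).

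**Figure D5:**
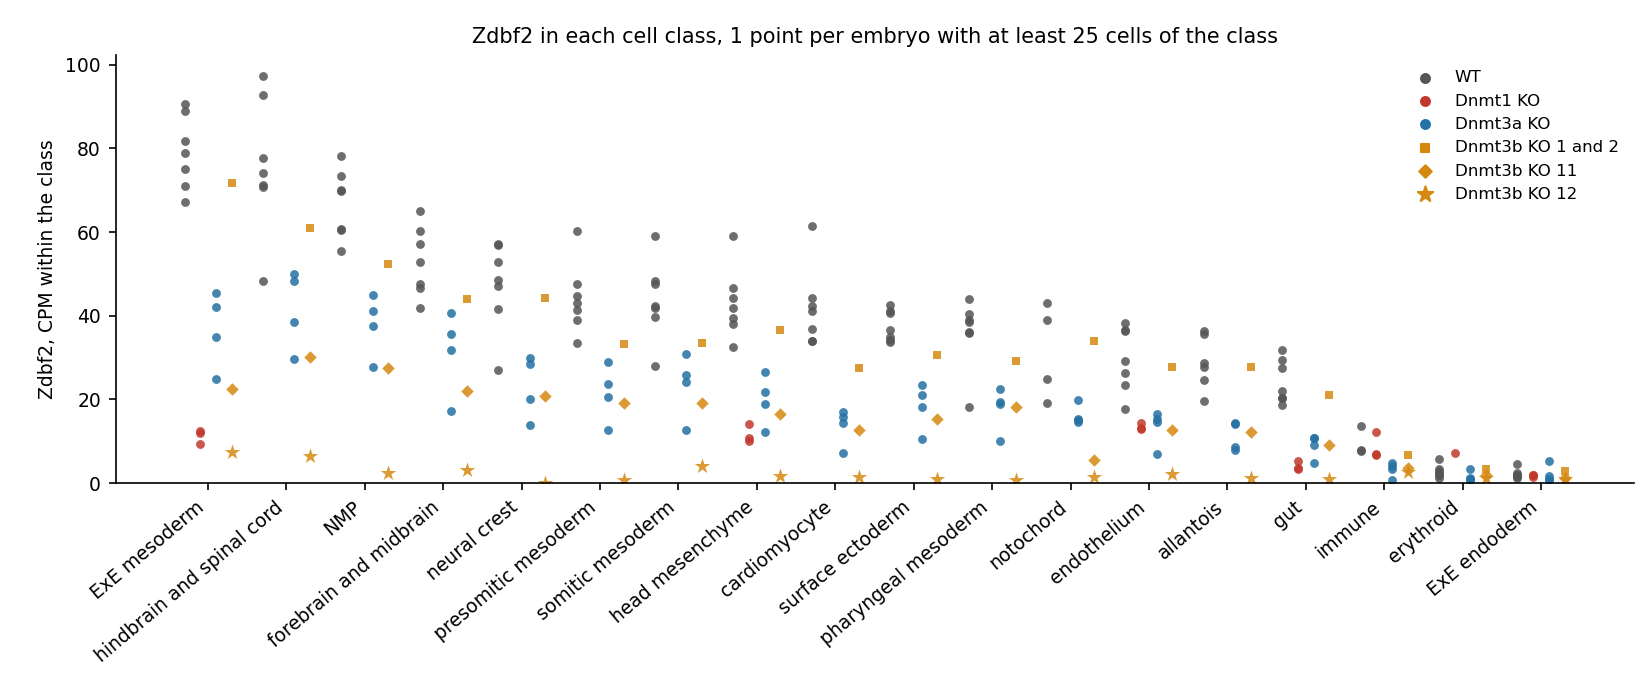
Zdbf2 level in CPM within each of 18 cell classes, with 1 point per embryo coloured by group. In ExE mesoderm Dnmt3b KO 12 has 7.37 CPM, and the WT embryos lie between 67.2 and 90.5 CPM.

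The remaining members had no call in Dnmt3a KO or Dnmt3b KO, over the whole embryo or in a class. Impact stood at 45.8, 46.1, 41.0 and 47.3 CPM in Dnmt3a KO (log2 fold change 0.06, SE 0.08, adjusted p 0.88) and at 45.4, 46.0, 44.1 and 43.9 CPM in Dnmt3b KO 1, 2, 11 and 12 (0.03, SE 0.09, adjusted p 0.892). All of these lay within the WT range of 37.7 to 49.7 CPM. Plagl1 stood at 27.6, 19.8, 29.5 and 29.6 CPM in Dnmt3a KO, with 3 of 4 mutants above every WT embryo (0.60, SE 0.20, adjusted p 0.287), and at 27.8, 24.3, 20.4 and 28.8 CPM in Dnmt3b KO (0.49, SE 0.22, adjusted p 0.258). Of 15 classes tested for Plagl1, the log2 fold change was positive in 13 for Dnmt3a KO and 6 for Dnmt3b KO. Nnat stood at 179, 140.4, 184 and 142 CPM in Dnmt3a KO (0.28, SE 0.18, adjusted p 0.664) and at 126, 151, 130.5 and 144 CPM in Dnmt3b KO (0.02, SE 0.20, adjusted p 0.968). Rasgrf1 stood at 0.0690 to 0.184 CPM in Dnmt3a KO and 0.132 to 0.262 CPM in Dnmt3b KO, from 15 to 43 UMIs in a library. The log2 fold change was -0.24, SE 0.34, adjusted p 0.884 and 0.31, SE 0.36, adjusted p 0.696.

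The effect on Nnat differed among classes in Dnmt3a KO (adjusted p 0.0098). The highest log2 fold changes were 1.43 in ExE endoderm, 1.06 in immune cells and 1.04 in erythroid cells, the classes with least Nnat in WT. In ExE endoderm the Dnmt3a KO embryos stood at 5.77, 37.5, 4.46 and 7.30 CPM and the WT embryos between 2.53 and 14.5 CPM. The high value belonged to Dnmt3a KO 2, the library with the lowest median depth (4463.5 UMIs per cell), and the highest WT value to WT 2, the WT library with the lowest (6815). The part of depth in these values was not tested.

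Direct comparisons between mutants set Impact apart. It was higher in Dnmt1 KO than in Dnmt3a KO (log2 fold change 1.29, SE 0.10, adjusted p 1.76e-07) and than in Dnmt3b KO (1.32, SE 0.11, adjusted p 6.12e-07), where 13.4% and 8.6% of all genes were called. No other member was called here or between Dnmt3a KO and Dnmt3b KO, where 0.214% of genes were called. Zdbf2 in Dnmt1 KO lay below every Dnmt3a KO embryo without passing the test (-1.07, SE 0.49, adjusted p 0.097). The share of all genes with no overlap between these mutants is not given here, so how unusual this is cannot be told.

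Host and neighbouring genes were set beside the members. Blcap, the host of Nnat, was at 10.2 to 15.3 CPM in WT and 6.43 to 6.76 CPM in Dnmt1 KO, a change under the fold threshold (-0.92, SE 0.15, adjusted p 0.000107). Trappc9, the host of Peg13 and a subunit of a membrane trafficking complex, did not pass (-0.38, SE 0.11, adjusted p 0.0101). Of 23 genes tested within 250 kb of a member, 2 were called in Dnmt1 KO, where 14.3% of all genes were called, and none in Dnmt3a KO (0.225% of all genes) or Dnmt3b KO (1.89%). Stx11, a syntaxin near Plagl1, rose (1.22, SE 0.33, adjusted p 0.00764). Gpr1, the receptor gene that holds the distal Zdbf2 start, fell (-1.37, SE 0.32, adjusted p 0.00289), though at 0.133 to 0.197 CPM in WT and 0.0375 to 0.105 CPM in Dnmt1 KO it was close to the detection limit.

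Other imprinted genes give the setting. Of 21 other paternally expressed genes tested, 5 rose and 4 fell in Dnmt1 KO (median log2 fold change 0.45), and of 24 maternally expressed genes 3 rose and 11 fell (median -0.98), beside a median of 0.02 over all genes. Of all 18658 genes tested, 14.3% were called in Dnmt1 KO, in either direction. None of 20 housekeeping genes was called in any mutant, and neither imprinted list had a call in Dnmt3a KO or Dnmt3b KO, where 0.225% and 1.89% of all genes were called. Among paternally expressed genes, Sfmbt2 (2.41, SE 0.31, adjusted p 1.6e-05) and Peg10, a retrotransposon-derived placental gene (2.09, SE 0.19, adjusted p 4.42e-07), rose. Dlk1, a Notch-related ligand (-2.89, SE 0.24, adjusted p 1.38e-07), and Peg12 (-1.25, SE 0.21, adjusted p 0.00017) fell. Among maternally expressed genes, the trophoblast factor Ascl2 (4.32, SE 0.63, adjusted p 5.4e-05) and the non-coding H19 (1.60, SE 0.18, adjusted p 3.95e-06) rose. The growth inhibitors Grb10 (-6.44, SE 0.29, adjusted p 1.39e-10) and Cdkn1c (-5.01, SE 0.22, adjusted p 1.21e-10) fell. Some of these levels varied widely among the mutants. Ascl2 averaged 23.4 ± 31.2 CPM (SD) over the Dnmt1 KO embryos against 1.24 ± 1.05 CPM over WT. Sfmbt2 averaged 54.1 ± 42.0 CPM against 10.7 ± 2.14 CPM. All are whole-embryo values, and ExE ectoderm made up 4.43% to 31.0% of Dnmt1 KO cells and 0% to 1.74% of WT cells. The part of this make-up in the changes was not tested.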

How the data were processed

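The 18 droplet libraries (10x Genomics, 3′ chemistry with UMIs), each of 1 embryo by its label, were processed by the authors with Cell Ranger (3.1.0 in 17 libraries and 5.0.0 in Dnmt3b KO 12, per the file headers), with mm10 as the genome. The deposited values are raw UMI counts per gene and barcode. In 4 libraries the reference also held human genes, whose counts were set aside. Depth and cell number differ between libraries, so low genes are measured less precisely in small ones, and 3′ counts carry no allele or isoform.

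From these counts, barcodes with at least 1500 mouse UMIs, at most 30% mitochondrial and at most 35% ribosomal UMIs were kept (117886 of 162336), and 7924 doublets called by Scrublet at 0.8% per 1000 cells were removed, which left 109962 cells (1366 to 12716 per library). Cell classes were rebuilt with scanpy 1.11.5 (Leiden clustering, leidenalg 0.10.2) from 26830 reference cells, with members and other imprinted genes kept out of the clustering. Of 45 clusters, 38 could be named into 21 classes from marker lists. Cells of the other 7 clusters (3.93% to 34.4% of a library) entered the whole-embryo sums only. Classes that differ from those of the study may come from this rebuilding. Dnmt3b KO 1 and 2, which share most barcodes, were averaged, which left 17 samples.

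Counts were summed per embryo, and per embryo and class (at least 25 cells), and compared by quasi-likelihood F tests in edgeR 4.0.16 under R 4.3.3 (TMM scaling, its filter on low counts, all groups in 1 fit, Benjamini-Hochberg adjustment over all genes). CPM were computed from the deposited counts. The effect among classes was tested with an F test of class by genotype with embryo as a block. Scripts were tested on simulated data. The members and lists were chosen with earlier results of these data known. Values are named for the members, their hosts, the targeted genes, called neighbours within 250 kb, the 3 most alike genes of each member at 10 CPM or more, and the 2 called genes with the largest change in each direction of each list. Genes named as leading a cluster or as holding the distal start lie outside this rule and were chosen after their values were seen. Peg13 was not analysed here. Litters are not stated, so p-values measure the spread between these embryos only. Alternatives were DESeq2 1.42.0, other scaling, no filter, thinning, covariates for sex and reference, a replicate block, smaller fits, all barcodes, a higher cell minimum and leaving out each replicate.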

Additional observations from a re-analysis of the deposited data

Results flagged for a closer look

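The effect of Dnmt1 KO differed among 6 cell classes for 4 members in the F test of class by genotype in edgeR. The adjusted p was 1.21e-11 for Zdbf2, which fell in ExE mesoderm, gut and head mesenchyme (a name in doubt for both groups) and stood at a log2 fold change of 0.07 in immune cells. It was 1.53e-07 for Nnat, which rose in endothelium and fell in gut. It was 1.66e-06 for Impact, which was higher in every class with log2 fold changes from 0.95 to 1.95. It was 1.22e-05 for Plagl1, which fell in endothelium. For Dnmt1 KO, 43.5% of all genes passed this test, and in ExE mesoderm, head mesenchyme and ExE endoderm most cells of the mutant and of WT lay in different clusters, whose part in the difference was not tested.

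The effect of Dnmt3a KO differed among 18 classes for Zdbf2 (adjusted p 0.000776 in edgeR), from -1.69 in immune cells to -0.04 in ExE endoderm, and for Nnat (0.0098), with the highest values in the classes with least Nnat in WT. For Dnmt3a KO, 4.01% of all genes passed this test.

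Among 10 tests for an embryo far from the others of its group, over the 5 members in WT and Dnmt3a KO, none was past the limit, where chance gives about 1 in 20.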

How the results depend on the processing

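Of the 5 members, 2 were called over the whole embryo in Dnmt1 KO, and leaving out 1 replicate at a time gave 1 to 2, with 1 without Dnmt1 KO 1 or Dnmt1 KO 2, when Zdbf2 was lost. Of the pairs of member and class, 12 were called in Dnmt1 KO, where 8.3% of all pairs of gene and class were called. Of these 12, 1 was Rasgrf1 in gut, which passed the filter on low counts through the mutants. Leaving out 1 replicate gave 7 to 13 pairs, with 7 without Dnmt1 KO 2. In Dnmt3a KO, with 0 members called, 1 member (Zdbf2) was called with only WT and Dnmt3a KO in the fit. The pairs called rose from 0 to 5 in that fit and to 6 without Dnmt3b KO 11 and 12, and leaving out 1 replicate gave 0 to 6, with 6 without Dnmt3b KO 12 and 1 without the averaged pair. In Dnmt3b KO the pairs rose from 0 to 2 with no filter and to 1 with a Y-linked covariate, and leaving out 1 replicate gave 0 to 3, with 3 without the averaged pair. In the main fit 0.115% of all pairs of gene and class were called in Dnmt3a KO and 0.657% in Dnmt3b KO. The shares in the altered fits are not given here, so a change over all genes and a change of the members cannot be told apart. The causes were not tested.

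Impact in Dnmt1 KO kept its direction under every alternative run. Values that changed sign were all of members that were not called. Plagl1 in Dnmt1 KO was -0.61 on the composition-standardised level, and Nnat in Dnmt1 KO ranged from -0.35 to 0.23 when 1 replicate was left out, with 0.23 without Dnmt1 KO 2. Rasgrf1 in Dnmt3a KO was 0.26 once a Y-linked term was added. For Dnmt3b KO, Nnat was -0.02 with a covariate for the reference, -0.01 without Dnmt3b KO 11 and 12, from -0.01 to 0.1 when 1 replicate was left out (-0.01 without WT 4), and -0.05 on the standardised level, where Impact was -0.02. Rasgrf1 in Dnmt3b KO was -0.05 without Dnmt3b KO 11 and 12 and ranged from -0.02 (without Dnmt3b KO 12) to 0.5 when 1 replicate was left out.

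With the replicate number as a block, Zdbf2 was at -2.03, -0.54 and -0.12 against WT in the Dnmt1, Dnmt3a and Dnmt3b mutants, and Rasgrf1 in Dnmt3a KO was 0.31. In Dnmt3b KO under the block, Plagl1 was -0.1, Nnat -0.23 and Impact -0.04. A sample whose number no other sample holds adds nothing to a blocked comparison. Dnmt3a KO 13 and 14 and Dnmt3b KO 11 and 12 therefore dropped out of these values. The Dnmt3a KO values rest on replicates 1 and 2, and the Dnmt3b KO values on the averaged pair alone. The smaller changes of Zdbf2 under the block thus leave out the libraries where it was lowest, and no conclusion is drawn from them. The block left the counts of called members and pairs at 2 and 12 in Dnmt1 KO. Same-numbered samples correlated between -0.241 and 0.202, so the numbers are not taken to pair the embryos.

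The main limits are 3 or 4 mutant embryos per group, rebuilt classes, the few UMIs of Rasgrf1, and sex, since most WT embryos were female and most mutants male.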
